A study of Rattus norvegicus with 4 samples.

Results

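The genes described here are the nuclear genes of oxidative phosphorylation (OXPHOS) in S16 cells. They were chosen by symbol, as all genes whose symbol begins with Nduf, Uqcr, Atp5 or Cox followed by a digit from 4 to 8, and the 4 genes Sdha, Sdhb, Sdhc and Sdhd. This rule, which uses no measured value, found 97 of the 30708 genes in the files. By complex, 48 belonged to complex I, 4 to complex II, 8 to complex III, 20 to complex IV and 17 to complex V. Assembly factors of complex I with these symbols were included, and Ndufa4 and Ndufa4l2 were counted with complex IV, where the Ndufa4 protein is now placed. Genes of the mitochondrial genome, Cox6b1 and Cox7a1 were not analysed here.

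S16 is an immortalized line of rat Schwann cells, the glia that myelinate peripheral axons. Poly(A) RNA was sequenced from 2 unmodified, untreated populations, 1 at passage 9 and 1 at passage 39, with 2 libraries each that the labels number as technical replicates 1 and 2. With 1 population per passage, a difference between passages cannot be told apart from a difference between these 2 populations, and the spread between libraries may be technical. The libraries with the same number lay closer to each other than those of the same passage, and nothing in the files settles whether the numbers mark technical replicates of 1 population, so each value by passage and each SD over populations below rests on the labels as given. The library totals, recovered from the deposited values, were 34.2 to 41.4 M reads (M, 1000000). The methods of the paper give fewer reads per cell line than any of these totals, and the difference was not resolved. Read shares, intervals and tests below rest on the recovered totals. The line carried its labelled identity: Sox10 was at 171 to 183 RPKM (reads per kilobase of gene and per M reads) and the myelin gene Pmp22 at 1216 to 1293 RPKM in the 4 libraries.

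OXPHOS is carried out by 5 protein complexes in the inner mitochondrial membrane. Complexes I and II pass electrons from NADH and succinate to ubiquinone, complex III passes them to cytochrome c and complex IV to oxygen, while complex V uses the proton gradient built by complexes I, III and IV to make ATP. Most subunits are encoded in the nucleus, and several of complex IV exist as isoforms found mainly in muscle, lung or testis. In Schwann cells, loss of respiration in mice leads to a neuropathy of the peripheral nerve. The transcription factors NRF1 and GABP (an ETS family protein also called NRF2) are textbook regulators of these genes, and YY1 binds many of their promoters.

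RefSeq promoters (GRCr8, 250 bases before to 50 bases after the gene start) were matched for 82 of the 97 genes, 67 by symbol and 15 by an older symbol. The core of the NRF1 motif, which is 2 copies of the letters GCGC held apart by any 2 bases and was searched on both strands, was present in 17 of the 82 (20.7%), against 6.15% of all 27457 promoters and 7.97% of the 19005 promoters of protein coding genes. Its special case with AT as the 2 middle bases, called the NRF1 palindrome here, was present in 6 of 82 (7.32%), against 0.932% of all promoters, and these 6 were Atp5g2, Atp5i, Atp5o, Ndufa11, Ndufaf4 and Ndufaf5. CCGGAAG, an ETS core searched on both strands, was present in 21 of 82 (25.6%), against 9.22% of all promoters, and AAGATGG, a YY1 core searched on both strands, in 18 of 82, against 7.30% of all promoters. TATAAA, searched on both strands, went the other way, with 7 of 82 (8.54%), against 14.3% of all promoters. The median GC content of the genes' promoters was 56.7%, against 52.3% of all promoters and 55.3% of the protein coding ones. The ETS, YY1 and TATA motifs were chosen after the data had been seen, and a match describes letters in a window, not a bound site. The bases 5′ of the start are shown for 4 genes: Ndufa11 and Atp5i, which carry the NRF1 palindrome, and the isoform pair Cox8a and Cox8b, since the former was measured well above and the latter near the floor in these cells. Capitals mark the NRF1 core, CCGGAAG or TATAAA on either strand, and each run is written 5′ to 3′ on the gene's strand.
Ndufa11 (chr9:1637364-1637613, plus strand): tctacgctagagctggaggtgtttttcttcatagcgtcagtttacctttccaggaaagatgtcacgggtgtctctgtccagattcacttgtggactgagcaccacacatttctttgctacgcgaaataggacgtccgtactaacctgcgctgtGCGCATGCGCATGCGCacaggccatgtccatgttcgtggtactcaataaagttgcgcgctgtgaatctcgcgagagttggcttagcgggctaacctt
Atp5i (chr14:1464610-1464859, plus strand): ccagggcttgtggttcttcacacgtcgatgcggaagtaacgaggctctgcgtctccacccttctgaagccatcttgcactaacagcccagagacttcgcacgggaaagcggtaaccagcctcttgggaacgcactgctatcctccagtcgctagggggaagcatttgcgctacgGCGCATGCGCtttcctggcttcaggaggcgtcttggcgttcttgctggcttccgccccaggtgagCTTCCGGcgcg
Cox8a (chr1:213833624-213833873, minus strand): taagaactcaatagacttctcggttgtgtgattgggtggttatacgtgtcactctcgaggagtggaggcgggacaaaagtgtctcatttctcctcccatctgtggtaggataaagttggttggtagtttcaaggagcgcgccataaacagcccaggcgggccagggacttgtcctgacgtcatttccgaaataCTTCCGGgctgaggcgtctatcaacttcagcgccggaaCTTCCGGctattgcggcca
Cox8b (chr1:205408274-205408523, minus strand): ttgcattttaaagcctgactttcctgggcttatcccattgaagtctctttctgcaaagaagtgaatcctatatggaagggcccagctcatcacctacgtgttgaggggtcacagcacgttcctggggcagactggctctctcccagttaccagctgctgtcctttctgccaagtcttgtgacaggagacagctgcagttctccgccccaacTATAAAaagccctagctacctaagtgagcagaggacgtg
The Ndufa11 window held 2 overlapping matches of the NRF1 palindrome, beginning 97 and 91 bases before the start. The Atp5i window held 1 such match at 76 bases and 1 CCGGAAG match on the opposite strand at 11 bases before the start. Cox8a held CCGGAAG on the opposite strand at 57 and 19 bases, and Cox8b held TATAAA at 39 bases and neither of the other motifs.

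**Figure D1:**
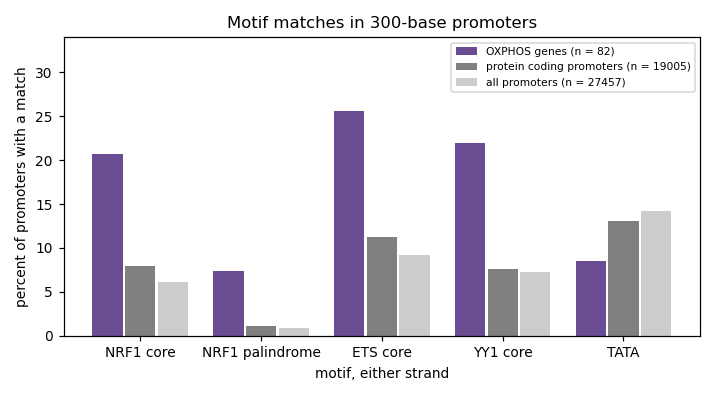
Percent of promoters (y axis, from 0) with at least 1 match on either strand for 5 motifs (x axis), in the 82 OXPHOS genes with a promoter entry, in 19005 protein coding promoters and in all 27457 promoters. The OXPHOS bar is the tallest for the NRF1 core, the NRF1 palindrome, the ETS core and the YY1 core, and the lowest for TATA.

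OXPHOS genes were among the more highly expressed genes of S16 cells. Averaged over the 4 libraries, 1 RPKM was reached by 87 of the 97 genes, while 11025 of all 30708 genes reached it. The median level of these 87 genes was 68.0 RPKM, against 11.1 RPKM for all genes that reached 1 RPKM, and 44 of the 97 were among the 1000 genes of highest level. Their summed RPKM was 7125 and 8860 in libraries 1 and 2 of passage 9, and 7094 and 8695 in libraries 1 and 2 of passage 39. As a share of all reads, they took 0.651% and 0.809% at passage 9 and 0.649% and 0.799% at passage 39. The sums of the libraries with the same number thus lay close to each other, and those of the libraries of 1 passage lay apart. Levels are given below in RPKM, in the order library 1 and 2 of passage 9, then library 1 and 2 of passage 39, and an SD is over the 2 population means.

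**Figure D2:**
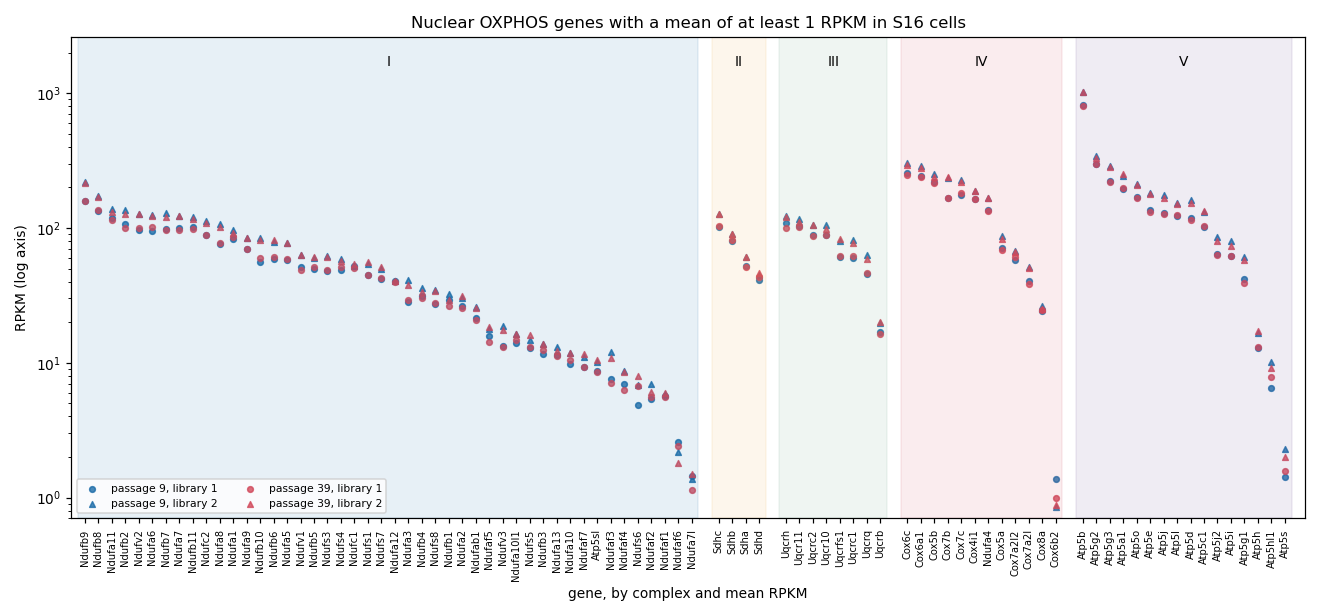
RPKM on a log axis (y) of 86 of the 87 OXPHOS genes that averaged 1 RPKM or more, grouped by complex I to V and ordered by mean (x). Each gene has 4 points, 1 per library, with colour for passage and shape for library number. Atp5b stands at the top with 809 to 1016 RPKM, and triangles (number 2) lie above circles (number 1) for most genes, while the colours overlap.

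Complex I oxidizes NADH. Its 7 nuclear core subunits, which hold the flavin and the iron-sulfur clusters, lay between 31.0 RPKM (Ndufs8) and 112 RPKM (Ndufv2), a 3.63-fold span. Ndufv2, an iron-sulfur subunit of the NADH-oxidizing module, was at 96.3, 126, 99.4 and 127 RPKM. Ndufv1, the flavin-binding subunit of the same module, was at 51.0, 62.9, 49.2 and 63.5 RPKM. The levels of Ndufv1, Ndufs3, Ndufs1 and Ndufs7, with means from 46.3 to 56.6 RPKM, overlapped between libraries, so their order was not resolved.

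The 30 accessory subunits of complex I had a median of 61.8 RPKM and spanned 28.4-fold. The highest was Ndufb9, a subunit of the membrane arm, with 159, 219, 159 and 217 RPKM (mean 188 ± 0.429, SD, n = 2 populations). It was followed by Ndufb8, with 134, 171, 135 and 169 RPKM, and Ndufa11, with 119, 138, 115 and 131 RPKM, both also of the membrane arm. In all of these, the libraries numbered 2 were the higher ones at both passages. The lowest accessory subunit was Ndufs6, a zinc-binding subunit that joins late in assembly, with 4.87, 6.88, 6.72 and 8.02 RPKM from 71, 85, 81 and 116 reads. The 8 assembly factors, which are not part of the finished complex, had a median of 8.53 RPKM and reached from 2.25 RPKM (Ndufaf6) to 16.6 RPKM (Ndufaf5). The like locus Ndufb4l1 was at 0.0661 RPKM and Ndufa7l at 1.36 RPKM, the lowest values listed under complex I.

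All 4 subunits of complex II, succinate dehydrogenase, were expressed, in a 2.61-fold span. Sdhc, a membrane anchor that binds heme with Sdhd, was the highest, with 101, 127, 103 and 126 RPKM. Sdhb, the iron-sulfur subunit, followed with 80.5, 90.7, 81.3 and 90.5 RPKM. Sdha, the flavoprotein that oxidizes succinate, was at 51.8, 61.1, 51.8 and 60.8 RPKM. Sdhd, the other membrane anchor, was at 41.2, 44.6, 43.2 and 46.0 RPKM, and the libraries of the 4 genes did not overlap, so the order Sdhc, Sdhb, Sdha, Sdhd held in every library.

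In complex III, the cytochrome bc1 complex, all 8 genes under the symbol rule passed 1 RPKM, with a median of 83.2 RPKM. The highest was Uqcrh, the acidic hinge protein near cytochrome c1, with 108, 123, 101 and 121 RPKM. Uqcr11, the smallest subunit, had 103, 117, 101 and 110 RPKM, and Uqcrc2, a core protein, had 88.5, 104, 87.3 and 104 RPKM. These 3 genes overlapped between libraries. The lowest were Uqcrq, a small subunit, with 45.4, 62.8, 46.4 and 58.8 RPKM, and Uqcrb, the subunit next to the quinone site, with 17.1, 19.6, 16.4 and 20.1 RPKM.

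Complex IV, cytochrome c oxidase, held both the highest median, 163 RPKM over the 12 genes that passed, and most of the genes of low level, since 8 of its 20 stayed below 1 RPKM. Cox6c was the highest, with 254, 304, 247 and 295 RPKM. Cox6a1, the ubiquitous isoform of subunit VIa, had 242, 290, 241 and 279 RPKM, and Cox5b, the zinc-binding subunit, had 218, 253, 217 and 239 RPKM. The 3 ranges overlapped, while the order Cox6c, Cox6a1, Cox5b held within every library. The 8 genes below 1 RPKM were Cox4i2, Cox6a2, Cox6c-ps1, Cox7a2, Cox7b2, Cox8b, Cox8c and Ndufa4l2.

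The isoforms fell into pairs of a high and a nearly silent gene. Cox4i1, the ubiquitous form of subunit IV, was at 164, 187, 163 and 187 RPKM, and Cox4i2, the form known from lung and hypoxic cells, at 0.0261, 0.0307, 0 and 0.0788 RPKM, from 1, 1, 0 and 3 reads, or 0.0186% of the pair. Ndufa4 was at 136, 167, 133 and 167 RPKM, and its hypoxia-inducible relative Ndufa4l2 at 0.0256, 0.0604, 0.0309 and 0.0516 RPKM, from 1 or 2 reads a library, or 0.0273% of the pair. Cox8a, the ubiquitous form of subunit VIII, was at 24.1, 26.3, 24.7 and 25.1 RPKM, while Cox8b, the form of heart and skeletal muscle, had 1 read in each library numbered 1 and none in the others. The recovered lengths of Cox8a and of Atp5h in complex V were 3331 and 3361 bp, against a median of 756 bp for the 87 genes. RPKM divides by length, so a length that is too long sets a level too low, which was not tested. The muscle form Cox6a2 and the testis form Cox8c were listed at 0 in all 4 libraries, and the testis form Cox7b2 was above 0 in library 2 of passage 39 alone, at 0.113 RPKM. An exact 0 can also be a failed estimate, as described below for Atp5f1. For comparison, 3 reads of a gene of 1000 bp correspond to 0.0725 to 0.0876 RPKM, so the values of Cox4i2, Cox8b and Ndufa4l2 lay near or below what such a count of 3 gives. These limits cover counting error only.

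Not every pair followed this pattern. Cox7a2, the form of subunit VIIa usual outside muscle, was at 0.296, 0.388, 0.556 and 0.497 RPKM, from 9, 10, 14 and 15 reads, while its relative Cox7a2l, which joins complexes III and IV into supercomplexes, was at 40.6, 51.8, 38.6 and 50.5 RPKM. The like locus Cox7a2l2 had 57.5, 67.1, 60.4 and 66.6 RPKM. Since only reads with a single position had been retained, reads shared by such near-identical copies are in neither value, and how far this lowered Cox7a2 was not tested. The testis form Cox6b2 was at 1.38, 0.845, 0.990 and 0.877 RPKM, from 14 to 27 reads a library.

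**Figure D3:**
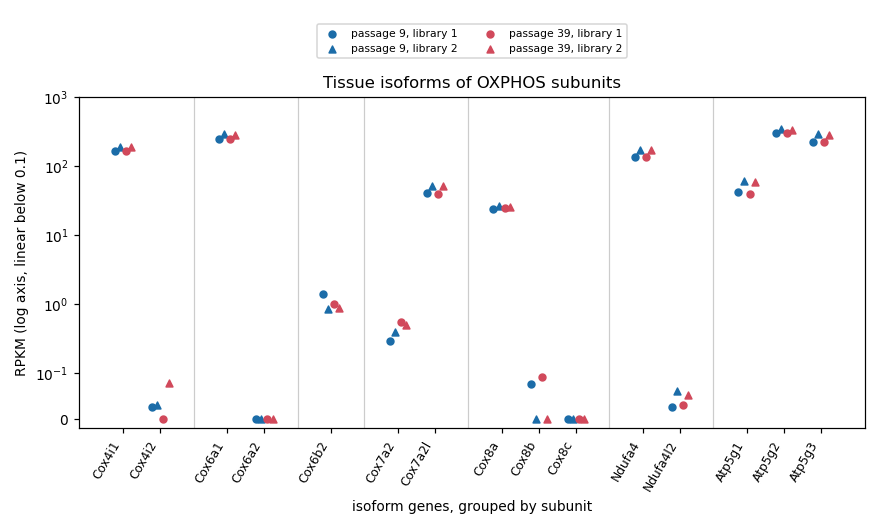
RPKM (y, log axis that is linear below 0.1) of 15 isoform genes, grouped by subunit (x), with 1 point per library, colour for passage and shape for library number. Cox4i2, Cox6a2, Cox8b, Cox8c and Ndufa4l2 lie below 0.1 RPKM in every library, Cox4i1, Cox6a1, Cox8a and Ndufa4 lie at 24.1 RPKM or more, and the 3 Atp5g genes are all expressed.

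Complex V, the ATP synthase, held the gene of highest RPKM under the symbol rule. Atp5b, the catalytic beta subunit of the F1 head, was at 818, 1014, 809 and 1016 RPKM (mean 914 ± 2.73, SD, n = 2 populations) and ranked 22nd among all genes. Its partner in the head, Atp5a1 (alpha), was at 196, 244, 198 and 249 RPKM. The other F1 subunits, Atp5c1 (gamma), Atp5d (delta) and Atp5e (epsilon), had means of 118, 137 and 157 RPKM, so that the 5 F1 genes spanned 7.78-fold. Atp5f1, the b subunit of the stalk, was listed at 0 in every library. An exact 0 can be a failed estimate, as the genes Surf1 and Chchd2, which cells use widely, were also at 0 in every library. The lowest gene above 1 RPKM was Atp5s, a coupling factor, with 1.43, 2.30, 1.59 and 1.99 RPKM.

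The c ring of complex V is made from 3 genes whose mature proteins are identical and whose import sequences differ. Atp5g2 was at 300.2, 339, 296 and 328 RPKM, Atp5g3 at 224, 286, 220 and 283 RPKM, and Atp5g1 at 41.8, 60.8, 39.1 and 57.6 RPKM. Of their sum, Atp5g2 made 51.2%, Atp5g3 40.8% and Atp5g1 7.97%. The share of Atp5g2 was 53.1% and 53.3% in the libraries numbered 1 and 49.4% and 49.1% in those numbered 2, and the share of Atp5g1 was 7.38% and 7.05% against 8.86% and 8.60%.

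Between passage 9 and passage 39, no OXPHOS gene was called. A gene was called where the libraries of the 2 groups did not overlap and their means, as log2(RPKM + 1), lay 1.2-fold or more apart; the added 1 understates the change of low genes. By this rule 0 of 87 genes were called, while 0.145% of the 11025 genes tested were. Without the fold, the libraries of 1 gene did not overlap, against 6.21% of all genes. This was Ndufa12, an accessory subunit of complex I, with 40.7, 40.5, 39.9 and 40.3 RPKM and a log2 difference of -0.02. The median log2 difference of the 87 genes was -0.02, against -0.00 for all genes tested. Above 0 lay 32 of 87, against 5269 of the 11025 genes tested.

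Among the 87 genes, the 2 largest differences between passages were those of Ndufs6 and Ndufb1. Ndufs6, whose values are given above, differed by 0.28 on the log2 scale with overlapping libraries, and was called with 2 other scalings and with the replicate number as a block. Its fold from passage 9 to passage 39 was 1.25 over the means, 1.38 in the libraries numbered 1 (95% interval 0.990 to 1.92; adjusted p = 0.864 by an exact binomial test) and in the libraries numbered 2 was 1.17 (95% interval 0.874 to 1.56; adjusted p = 0.903 by an exact binomial test on the recovered reads). Ndufb1, a small accessory subunit, was at 29.3, 32.3, 26.2 and 29.5 RPKM, a log2 difference of -0.14 with overlapping libraries. Of the genes under 1 RPKM, which were not tested, Cox7a2 was higher in both passage 39 libraries than in both of passage 9, by 0.19 on the log2 scale, from 9 to 15 reads a library.

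The same question was put to the reads. In an exact two-sided binomial test of the recovered reads between the 2 libraries of the same number, with Benjamini-Hochberg adjustment over all genes, 0 of 88 OXPHOS genes with at least 20 reads passed an adjusted p of 0.05 in either pair. The background was 0.0516% of genes in the libraries numbered 1 and 0.311% in those numbered 2. At an unadjusted p under 0.05 there were 5 of 88 in the former (5.68%, against 5.89% of all genes) and 12 of 88 in the latter (13.6%, against 7.97%). For Atp5b the fold between passages in the libraries numbered 2 was 1.00 (95% interval 0.990 to 1.01). The 95% interval of the fold lay within 1.2-fold in both directions for 74 of 88 genes in the libraries numbered 1 and for 75 of 88 in those numbered 2, so for the others a change of that size could not be told from none at this depth. These intervals compare 2 libraries, not conditions.

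**Figure D4:**
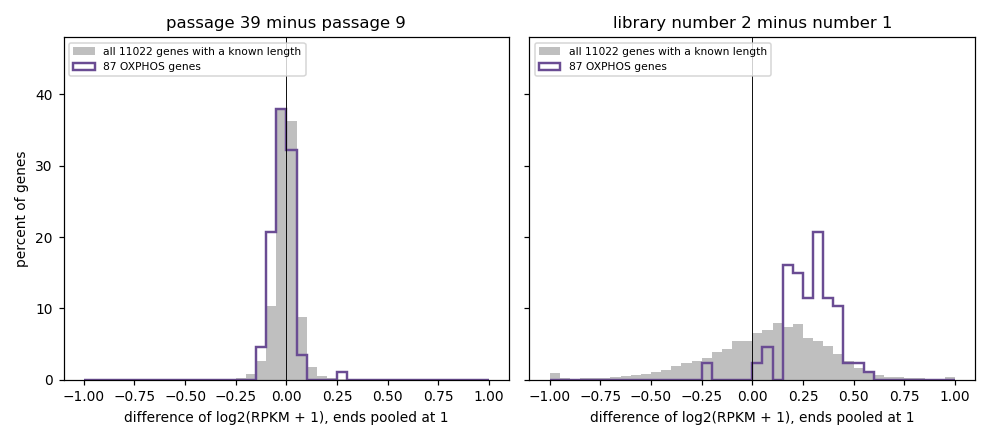
Distribution of the difference in log2(RPKM + 1) (x) as percent of genes (y), for passage 39 minus passage 9 (left) and library number 2 minus number 1 (right). Grey bars are the 11022 genes with a recovered length and the line is the 87 OXPHOS genes; values beyond 1 are pooled in the end bars. Between passages both are centred near 0, and between library numbers the OXPHOS genes sit at a median of 0.29 while all genes sit at 0.10.

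The library number, which the labels call a technical replicate and which is no condition of the study, separated these genes where passage did not. Of the 87 genes, 85 were higher in the libraries numbered 2 than in those numbered 1 (97.7%, against 64.1% of all genes), while 5 changed sign with the libraries scaled to a sum of 1000000 and 4 with median-ratio scaling, and the 87 had a median log2 difference of 0.29, against 0.10 for all genes. The libraries of the 2 numbers did not overlap for 82 genes that were higher in number 2, against 57.2% of all genes, and for 2 that were lower, against 30.5%. By the rule above, 47 of 87 genes (54.0%) were called higher in number 2, against a background of 25.8% of all genes called higher, and 0 were called lower, against 13.1%. The count depended on the scaling. With libraries scaled to a sum of 1000000 it was 14 higher and 2 lower, and with median-ratio scaling 25 higher and 2 lower. In either direction these were 16 and 27 OXPHOS genes, while 38.4% and 34.6% of all genes were called. Without these scalings, none of the 87 reached 2-fold, which 1.08% of all genes did. The grouping by number was looked at because earlier results of these data had shown it to separate the libraries.

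The counts by complex stand beside the same 25.8% of all genes called higher. In complex V, 15 of 16 genes were called higher, all but Atp5g2, and all 5 F1 subunits were among them. In complex I, 23 of 47 genes were called higher, in complex II 1 of 4 (Sdhc), in complex III 3 of 8 (Uqcrc1, Uqcrfs1 and Uqcrq) and in complex IV 5 of 12 (Cox5a, Cox7a2l, Cox7b, Cox7c and Ndufa4). The share in complex II, 1 of 4, was close to that of all genes, and the differences between complexes were not tested.

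The gene with the largest difference was Ndufaf3, an assembly factor of complex I, with 7.61, 12.1, 7.10 and 10.9 RPKM and a log2 difference of 0.58. Its reads gave a fold of 1.59 at passage 9 (95% interval 1.42 to 1.79; adjusted p = 4.38e-15, exact binomial test) and of 1.53 at passage 39 (95% interval 1.35 to 1.73; adjusted p = 1.98e-11, exact binomial test). The c-ring gene Atp5g1 followed with 0.54, and its fold was 1.46 over the means. Ndufb10, an accessory subunit of the membrane arm, was at 55.8, 84.7, 60.3 and 81.1 RPKM, a log2 difference of 0.51. Cox7b, a small subunit of complex IV, was at 168, 235, 167 and 239 RPKM, a difference of 0.50. In all 4 genes both libraries numbered 2 lay above both numbered 1. The next in order were Ndufb9 (0.45), Ndufa8 (0.45), Ndufa3 (0.43) and Ndufv3 (0.43) of complex I, the F1 subunit Atp5d (0.43) and Ndufb6 (0.41) of complex I.

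Among the 87 genes, only Ndufaf6 and Cox6b2 lay lower in number 2. Ndufaf6, an assembly factor of complex I, was at 2.58, 2.19, 2.43 and 1.80 RPKM, a log2 difference of -0.23, and Cox6b2 also differed by -0.23. Neither was past 1.2-fold on the log2(RPKM + 1) scale, and both rest on few reads, 79 to 114 a library for Ndufaf6. Ndufa12 and Ndufc1, accessory subunits of complex I, lay at the middle, with log2 differences of 0.00 and 0.04.

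On the reads, the exact binomial test between the 2 libraries of passage 9 called 74 of 87 OXPHOS genes higher in number 2, against 39.2% of all genes, and that of passage 39 called 68 of 88, against 38.1%. None was lower in either, and the share of all genes that this test called lower is not given here, so that count has no background. No difference between the passages was detected in the change from number 1 to number 2: 0 of 86 OXPHOS genes passed an adjusted p of 0.05 in a Wald test of the ratio of the 2 read ratios (0.115% of all genes did), and 8 of 86 (9.3%) had an unadjusted p under 0.05, against 6.91% of all genes.

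These genes are short, and the difference between library numbers moved with gene length over all genes. The median recovered length of the 87 genes was 756 bp, against 2620 bp for all genes tested. A recovered length can be the true one divided by a factor shared by the reads, as may be so for the shortest, down to 5 bp over all genes and 180 bp among the 87, so single genes can sit in too short a bin. Over 20 bins of length, the median log2 difference of all genes was 0.28 in the shortest bin, up to 635 bp, and -0.22 in the longest, from 7967 bp. The shortest bin held 36 of the 87 OXPHOS genes and the bins above 3481 bp held none. Taken relative to the median of its bin, the difference of the 87 genes had a median of 0.05. Then 4 of 87 genes were called, against 26.0% of all genes. The no-overlap condition was still taken from the uncorrected values. Atp5g1 and Ndufaf3 were higher, with relative log2 differences of 0.32 and 0.37, and Cox6b2 and Ndufaf6 were lower, with -0.51 and -0.45. Ndufa12, with -0.28, was past 1.2-fold but was not called, as its uncorrected libraries overlapped. By complex, the median relative difference was 0.13 in complex V, 0.04 in complexes I and III, 0.01 in complex II and -0.03 in complex IV. Whether length or something that goes with it set the difference was not tested.

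**Figure D5:**
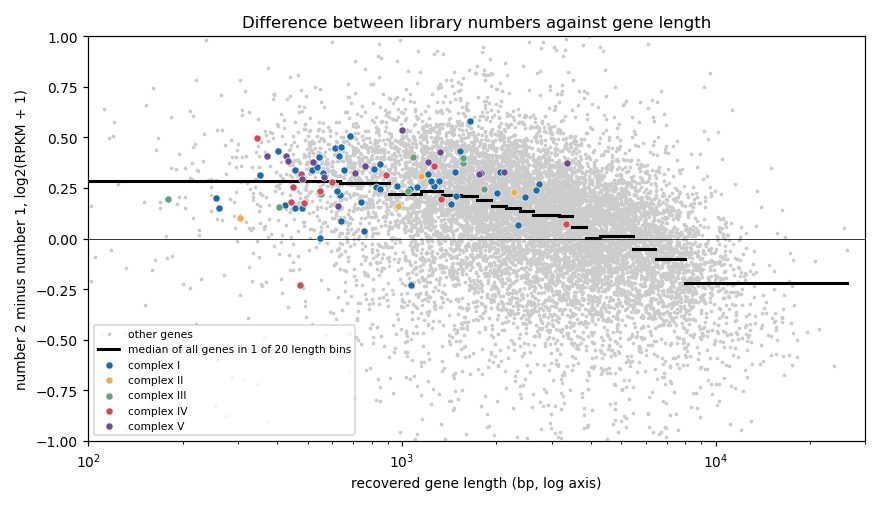
Difference in log2(RPKM + 1) between library numbers (y, number 2 minus number 1) against recovered gene length in bp (x, log axis), for the 87 OXPHOS genes coloured by complex and for other genes in grey; 141 of 11022 genes, none of them OXPHOS, lie outside the axes. Black lines are the median of all genes in each of 20 length bins, and they fall from 0.28 in the shortest to -0.22 in the longest bin; the OXPHOS points scatter around the left end of the lines.

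Other genes moved with the library number as well, where 25.8% of all genes were called higher in number 2 and 13.1% lower. Of 6 Schwann cell genes, 3 were called lower in number 2 (Mag, S100b and Cnp) and 1 higher (Egr2), and their summed level was 1849 and 1837 RPKM in number 1 and 1789 and 1775 RPKM in number 2. The sum of 6 muscle markers was 1.41 and 1.85 RPKM in number 1 and 3.55 and 3.54 RPKM in number 2, and that of 5 fibroblast markers 3432 and 3445 RPKM against 3933 and 3826 RPKM. Of the muscle markers, Tnnt2 alone averaged 1 RPKM or more, and Ckm and Mb were below 0.05 RPKM; the fibroblast sum was nearly all Col1a1, which was not called, with Dcn at 0 in 3 libraries. Of the other fibroblast markers, Col3a1 was called lower in number 2, with 82.8, 50.3, 81.9 and 48.5 RPKM, and Pdgfra was called higher. The sum of 6 neuron markers was 144 and 148 RPKM against 102 and 99.6 RPKM, nearly all from Nefl and Nefm, with Syt1 at 0 in all 4 libraries. Of 4 macrophage markers, Cd68 alone averaged 1 RPKM or more, with Ptprc at 0, and of 4 testis markers none did, with Tnp1 and Prm1 at 0. The part of these in the OXPHOS result was not tested. In bulk RNA, fewer cells of a type and less RNA per cell cannot be told apart.

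The partners of the complexes were read from lists outside the symbol rule, again beside 25.8% of all genes called higher and 13.1% called lower in number 2. Of 7 genes listed as electron carriers and entry enzymes, 4 were called higher in number 2. These were cytochrome c (Cycs), cytochrome c1 (Cyc1) and the electron-transferring flavoprotein genes Etfa and Etfdh. The 1 called lower was Gpd2, the mitochondrial glycerol phosphate dehydrogenase. Cyc1, itself a subunit of complex III, was at 115, 154, 113 and 153 RPKM. It was thus above Uqcrh, the highest complex III gene under the symbol rule, in every library. Gpd2 was at 8.14, 6.28, 8.64 and 6.28 RPKM. Of 9 genes of coenzyme Q synthesis 1 was called higher (Coq3), of 6 further complex I assembly genes 3 (Ecsit, Timmdc1 and Tmem126b), of 3 complex III assembly genes 1 (Lyrm7), of 11 complex IV assembly genes 4 (Cox14, Cox17, Cox18 and Cox20), and of 4 complex V assembly or inhibitor genes 1 (Atpaf2), with none lower. The complex II assembly gene Sdhaf2 and 3 hypoxia-related genes, Hif1a, Lonp1 and Rbpj, were not called. Of 13 regulators above 1 RPKM, 4 were called higher in number 2 (Esrra, Tfb2m, Polrmt and Polg2) and none lower, a share near that of all genes. Nrf1 was at 8.84, 9.35, 8.88 and 9.14 RPKM, the GABP subunit Gabpa at 19.2, 17.9, 20.7 and 18.2 RPKM and Tfam, which packages mitochondrial DNA, at 23.3, 28.7, 23.8 and 27.1 RPKM. The coactivator gene Ppargc1a was listed at 0 in every library, which can also be a failed estimate. None of the genes of these lists was called between passages.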

How the data were processed

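Poly(A) RNA from 2 S16 populations, with 2 libraries each, was sequenced by the authors as single-end reads. According to the methods, STAR placed the reads on the rat assembly Rnor_5.0, reads with a single position were retained, and HTSeq counted them per gene without strand. The authors deposited RPKM values, 1 per gene symbol; the gene lengths and totals behind them are not given in the sources used here. Groups follow the labels for passage and technical replicate number.

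Whole reads, lengths up to 30000 bp and library totals were recovered from the RPKM values, for 18111 of 18114 genes with a value in at least 2 libraries (tolerance 0.001 reads). They are the smallest whole numbers that fit, so a common factor can remain hidden. Reads and read shares are then too low, and intervals too wide. Recovery and tests were run on reads simulated from the recovered totals and lengths, which cannot show whether these totals are right. Intervals are exact, at 95%, and cover counting error only.

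Comparisons used log2(RPKM + 1) of group means for the 11025 genes that averaged 1 RPKM or more. A gene was called where groups did not overlap and differed by at least 1.2-fold. Reads of library pairs were compared by an exact binomial test with at least 20 reads, adjusted over all genes. With 1 population per passage, no p across populations was computed. Differences relative to length subtract the median of 20 length bins, while the no-overlap condition stays that of the uncorrected values. The tools were scipy 1.17.1, pandas 2.3.3, numpy 2.4.6, matplotlib 3.10.9 and Python 3.11.15. Alternatives were 2 scalings, a pseudocount of 0.1, minimums of RPKM, a replicate block and each library left out.

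Genes named are, per complex, the 3 highest and 2 lowest, the isoform sets, complex II, the 10 largest called differences and genes at 0; others, such as Ndufa12, Ndufc1 and Ndufb1, were picked after their values were seen. The members and lists were chosen with earlier results of these data known. Some genes that the lists cover are not reported here by name.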

Additional observations from a re-analysis of the deposited data

How the results depend on the processing

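The number of OXPHOS genes at 1 RPKM or more, 87, was between 83 and 88 under the alternatives run. The count called between passages, 0, became 2 when libraries were scaled to a sum of 1000000 (Cox7a2 and Ndufs6) and 1 with median-ratio scaling (Ndufs6). Of all genes, 0.975% and 0.163% were called with these scalings. Leaving out each library in turn gave 2 to 7 calls. The library numbers are then unbalanced between the passages, and the no-overlap condition rests on fewer libraries. The part of either in these calls was not tested. Of all genes, 5.97% to 9.25% were called with a library left out. The count called between library numbers, 47, became 16 (14 higher, 2 lower) when scaled to a sum of 1000000. It was 27 (25 higher, 2 lower) with median-ratio scaling and 4 (2 higher, 2 lower) relative to genes of similar length. The lower genes were Cox6b2 and Ndufaf6 in each. Of all genes, 38.4%, 34.6% and 26.0% were called in these settings, in either direction, against 38.9% before. Those scalings also move all genes: their median difference went from 0.10 to -0.03 and 0.03, and that of the OXPHOS genes from 0.29 to 0.14 and 0.20. Relative to length, the difference between numbers changed sign for 29 of 87 genes, of which 1, Cox5a, had been called, at -0.0019. Leaving out a library changed the sign of the passage difference for 30 to 51 of 87 genes and moved its median between -0.16 and 0.15. Leaving out a library moved the share of Cox4i2 between 0.00808% and 0.0292%, Cox8b between 0.0785% and 0.263%, Ndufa4l2 between 0.0230% and 0.0316%, Atp5g1 between 7.58% and 8.36%, Atp5g2 between 50.1% and 52.3% and Atp5g3 between 40.1% and 41.5%. Depth limits the genes under 20 reads. The shares of Cox4i2, Cox8b and Ndufa4l2 rest on 0 to 3 reads a library. That of Cox7a2 beside Cox7a2l, between 0.854% and 1.08% with a library left out, rests on 9 to 15.

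The libraries of the 2 passages share replicate numbers, and the deviations of the same-numbered libraries from their group means correlated at 0.943 over genes. With 2 pairs, and no label that ties a number to a batch or day, the libraries share only a number. With the replicate number as a block, 1 OXPHOS gene was called between passages (Ndufs6) and 47 between numbers. Of all genes, 0.308% and 39.0% were called.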

Other observations

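The like and pseudogene loci under OXPHOS symbols were not silent as a group. Of 6 such loci, 4 averaged 1 RPKM or more. Cox7a2l2 had a mean of 62.9 RPKM, above the 45.4 RPKM of Cox7a2l, and Ndufa10l1 had 15.4 RPKM, above the 11.0 RPKM of Ndufa10, the accessory subunit it resembles. By recovered reads the order was the other way in every library, since the recovered lengths differ. Cox7a2l2 had 919 to 1214 reads over 444 bp, against 1678 to 2631 over 1268 bp for Cox7a2l. Ndufa10l1 had 727 to 968 reads over 1434 bp, against 889 to 1192 over 2466 bp for Ndufa10. Atp5hl1 averaged 8.44 RPKM, and Atp5h, the stalk subunit d, was at 12.8, 16.7, 13.1 and 17.3 RPKM. Reads with several positions had been dropped, so values of such copies are uncertain, and whether reads of the parent genes went to them was not tested.

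The inhibitor of complex V, Atpif1, which blocks ATP hydrolysis, was at 104, 117, 104 and 115 RPKM, within the range of the complex V subunits. The assembly factors of complex V were lower, with means of 5.70 RPKM (Atpaf1), 8.74 RPKM (Atpaf2) and 7.24 RPKM (Tmem70).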
